A study of Mus musculus with 6 samples.

Results

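The comparison described here set the liver of male mice that had eaten a fast-food diet for 5 months and received canertinib over the closing weeks against the liver of mice kept on chow for the same 5 months. It was chosen by the array titles, and it takes 2 of the 6 arrays of the series, 1 per group, and 13989 measured genes of 18194 genes with a symbol of their own. The question was which genes stayed or became different from the chow liver when the drug was given on top of the diet. Each array carried RNA pooled from 3 to 4 livers, so a group is 1 measurement of a pool. No difference below has a replicate check, an error or a test, and sizes are given alone.

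All mice were male C57BL6/J, an inbred laboratory strain, and were 6 to 8 weeks old at the start. The chow group ate chow for 5 months, and the labels name no injection for it. The canertinib group ate a diet with 21% fat by weight (42% of energy), 34% sucrose by weight and 0.2% cholesterol, and drank water with glucose at 18.9 g/L and fructose at 23.1 g/L. Over the final 5 weeks these mice were injected intraperitoneally with canertinib at 80 mg/kg on 5 days per week. A diet group of the same study, used below for values side by side, ate and drank the same and was injected with vehicle (PBS). Diet, sugar water, injections and drug all separate the canertinib group from chow, and their parts cannot be told apart in this comparison. A 2-month study, with chow, diet and diet with canertinib mixed into the food at an estimated 80 mg/kg per day, shares no array with it.

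Canertinib binds irreversibly to ERBB receptor tyrosine kinases and blocks them. One of these, the epidermal growth factor receptor (EGFR), is abundant on hepatocytes and signals through ERK and AKT to growth and metabolism. A diet rich in fat, cholesterol and sugar loads the liver with triglyceride and sterol, shuts down the liver's own cholesterol synthesis and, with time, brings in macrophages and matrix. The liver is also the source of the acute phase proteins, plasma proteins whose genes hepatocytes turn up when interleukin-6 and interleukin-1 reach them.

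Transcripts were measured by short probes on Affymetrix mouse expression arrays, and the signal is a fluorescence in arbitrary units. Values below 221.4, the floor, were replaced by it, so a gene that lay there on chow or with canertinib has a lower bound (at least N-fold) in place of a fold. The floor was passed by 84.3% to 86.6% of measured genes, depending on the array. The signals of the hepatocyte products Alb and Apoa1 were 55464 and 60071 or more on every array. As the background of untreated liver, the 5-month chow array against the 2-month chow array had 1.28% of measured genes higher by 2-fold or more and 1.32% lower by as much. For actin, the log2 signal of the 3' control probes over the 5' control probes, which moves with RNA quality, was 0.85 on the chow array, 0.98 on the diet array and 1.12 on the canertinib array of the 5-month study. That of Gapdh was -0.09, -0.22 and -0.14. The actin value thus moved with the comparison, and its part in every result below was not tested.

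With diet and canertinib, 395 genes (2.82%) exceeded chow by 2-fold or more and 380 (2.72%) were below it by 2-fold or more, so that 51.0% of the genes past 2-fold were higher. Together 5.54% of measured genes were past 2-fold, and counts within the short lists below are to be read beside these shares. At 4-fold the counts were 56 and 38. The median log2 difference over all measured genes was 0.00. Diet with vehicle, set against the same chow array, had 381 genes (2.72%) higher and 256 (1.83%) lower. These comparisons share the chow array, so their values are given side by side below without a count of genes in common. In the plot of signals on the arrays compared, the genes farthest above chow included Lcn2, Orm2, Saa2, Cyp17a1, Igfbp1, Mt1, Mt2 and S100a9, and those farthest below it included Mup10, Hsd3b5, Cyp4a12a, Gsta4, Nomo1 and Phgdh.

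**Figure D1:**
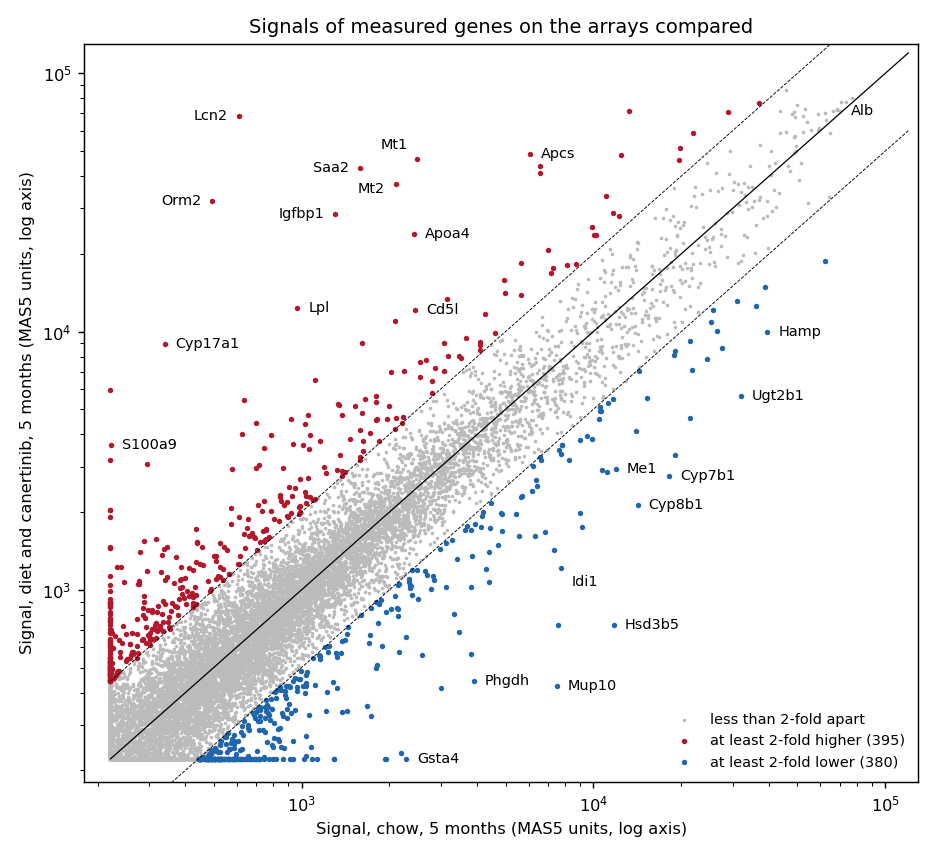
Signal of each of the 13989 measured genes on the chow array (horizontal) and on the array of diet and canertinib (vertical), both at 5 months, in MAS5 units on log axes, 1 point per gene. The solid line marks equal signals and the dashed lines 2-fold; red points are the 395 genes at least 2-fold higher and blue points the 380 at least 2-fold lower, and points along the left and lower edges sit at the floor of 221.4. Lcn2 and Orm2 lie farthest above the line, and Mup10 and Hsd3b5 are among those farthest below it.

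Acute phase protein genes made up the group with the highest median. Of 26 measured members, 18 were at least 2-fold higher than on chow and 1 at least 2-fold lower, and the median log2 difference was 1.54 against 0.00 over all measured genes. On the diet array alone the median was -0.19. Lcn2, whose product binds bacterial iron carriers, had signals of 609 on chow, 4481 with the diet alone and 68150.2 with diet and drug. The canertinib array was 112-fold above chow, the largest difference of any gene above the floor on both arrays, and the diet array lay between them. Orm2, an orosomucoid of plasma, had 495 on chow, 1389.7 with the diet alone and 31989 with diet and drug, which is 64.6-fold above chow. Its relative Orm3 was at the floor on chow and read 833 and 3184 on the diet and canertinib arrays, so it was at least 14.4-fold higher with the drug. For these 3 genes the diet array too was above chow. The 5-month chow array was itself at least 1.46 log2 above the 2-month one for Lcn2 and at least 1.16 for Orm2, so their folds depend on the chow array used.

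Several other acute phase genes were near chow on the diet array and far above it with canertinib. The serum amyloid gene Saa2 had signals of 1588 on chow, 1836 with the diet alone and 42877 with diet and drug, a log2 difference of 4.75 with the drug and 0.21 without. Saa1, its close copy, had 13262 on chow, 13376 with the diet alone and 71738 with diet and drug, or 2.44 and 0.01. For both genes the 5-month chow array was above the 2-month chow array, by 3.38 log2 for Saa1 and 2.49 for Saa2, so their distance from chow depends on the chow array used. How far the probe sets tell these copies apart was not tested. Apcs, the gene of serum amyloid P, had 6085 on chow, 4950.0 with the diet alone and 48759 with diet and drug, which is 8.01-fold above chow. The protease inhibitor gene Serpina3n had 6586 on chow, 7065 with the diet alone and 41116 with diet and drug, or 6.24-fold. Fgl1, which encodes a fibrinogen-like protein secreted by hepatocytes, had 6561 on chow, 4221 with the diet alone and 43894 with diet and drug and was 6.69-fold higher. For Apcs and Fgl1 the diet array was below chow, at log2 differences of -0.30 and -0.64. Hepcidin, encoded by Hamp, was the member of the list that was at least 2-fold lower, and it is described with the genes that differed on both diet arrays.

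Promoters of the group are shown because its members were high together. Of the 26 measured members, 19 had a promoter in the RefSeq table of build GRCm38.p6, read here over the 250 bases before the start. The motif TTNNGNAAT, a form of the site bound by C/EBP factors, was in 6 of the 19 (31.6%) on either strand and in 11.7% of all 27025 genes in the table. A gene was counted when any of its promoters held the motif. The motif TTCNNNGAA, the palindromic site of STAT factors, was likewise in 6 (31.6%) against 8.1%, and GGANTTTCC, a form of the NF-kB site, in 0 against 1.2%. A match is a string of letters and not a shown binding site. Capitals mark the C/EBP motif in Saa2 (chr7:46751583-46751832, plus strand) and Orm2 (chr4:63362199-63362448, plus strand) and the STAT motif in Apcs (chr1:172895055-172895304, minus strand), each written 5′ to 3′ in the direction of the gene.
Saa2: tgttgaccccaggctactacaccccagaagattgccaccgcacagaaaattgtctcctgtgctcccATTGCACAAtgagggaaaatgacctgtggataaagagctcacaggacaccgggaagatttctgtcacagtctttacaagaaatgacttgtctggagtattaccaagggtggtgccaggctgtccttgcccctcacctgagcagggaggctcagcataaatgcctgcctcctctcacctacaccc
Orm2: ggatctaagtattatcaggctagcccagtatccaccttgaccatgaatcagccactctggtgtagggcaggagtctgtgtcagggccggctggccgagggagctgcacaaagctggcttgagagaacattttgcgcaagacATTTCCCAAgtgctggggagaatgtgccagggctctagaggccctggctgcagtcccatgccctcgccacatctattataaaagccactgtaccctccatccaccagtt
Apcs: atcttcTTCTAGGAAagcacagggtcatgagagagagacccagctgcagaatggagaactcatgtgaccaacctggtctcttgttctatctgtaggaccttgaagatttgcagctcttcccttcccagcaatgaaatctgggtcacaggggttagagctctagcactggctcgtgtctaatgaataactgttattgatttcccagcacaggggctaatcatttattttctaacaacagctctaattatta
Among all genes at least 2-fold higher with diet and canertinib, 9.0% of the 300 with a promoter held the C/EBP motif and 7.3% the STAT motif, shares near the 8.8% and 7.3% of all 11216 measured genes with a promoter. Lcn2, with the largest difference, held none of these 3 strings of letters in this window, and other forms of the sites were not searched.

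The receptors and regulators that carry such signals gave a mixed picture. Of 24 measured genes of the interleukin-6 family and NF-kB list, 7 were at least 2-fold higher and 1 lower, with a median of 0.38 against -0.05 for the diet. The interleukin-1 receptor gene Il1r1 was at the floor on the chow and diet arrays and had 1913 with canertinib, so it was at least 8.64-fold higher. The sign was seen in 1 of its 2 probe sets, and the other did not differ. Nfkbiz, an inducible nuclear regulator of NF-kB targets, had 318 on chow, 545 with the diet alone and 1572 with diet and drug. Osmr, the oncostatin M receptor gene, was at the floor on chow and read 378 and 875 on the other arrays. For each of these genes the canertinib array was the highest of the 3. Cebpd, which encodes a C/EBP factor, had 275 on chow, 1071 with the diet alone and 1049 with diet and drug, so it was as far from chow with the diet alone, and the chow arrays themselves lay -1.70 apart (5 minus 2 months).

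Metallothioneins, small proteins that bind zinc and copper, were among the largest differences. Mt1 had signals of 2484 on chow, 3476 with the diet alone and 46630.4 with diet and drug. Mt2 had 2101, 2109 and 37403 in the same order, so that they were 18.8-fold and 17.8-fold above chow. The diet array was within 0.5 log2 of chow for both. Other genes of metal and iron handling were also higher with canertinib. The zinc and iron importer gene Slc39a14 had 3079.6 on chow, 3082 with the diet alone and 9072 with diet and drug. The iron transporter gene Slc11a2 had 610.3 on chow, 895 with the diet alone and 1914 with diet and drug. The transferrin receptor gene Tfrc had 627 on chow, 1629 with the diet alone and 4002 with diet and drug, and among its 6 probe sets 3 shared the sign and none opposed it. On the diet array Slc39a14 was level with chow and Tfrc was above it. These 5 were the members at least 2-fold higher of 20 measured, none was at least 2-fold lower, and the median of the list was 0.03, so the difference was in single genes and not in the list as a whole. TGCNCNC, a loose form of the metal response motif, was in 9 of the 12 genes of this list with a promoter in the table (75.0%). It was in 47.2% of all genes with a promoter and in 55.7% of measured genes with one. Mt1 and Mt2 lie beside each other, at chr8:94178839-94179088 and chr8:94172368-94172617 for the windows printed here, both on the plus strand, and capitals mark the motif on either strand.
Mt1: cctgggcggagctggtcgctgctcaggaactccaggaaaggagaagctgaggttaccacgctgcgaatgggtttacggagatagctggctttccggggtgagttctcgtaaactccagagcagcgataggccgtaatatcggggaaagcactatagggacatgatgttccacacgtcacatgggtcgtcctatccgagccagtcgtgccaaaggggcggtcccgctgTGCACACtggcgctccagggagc
Mt2: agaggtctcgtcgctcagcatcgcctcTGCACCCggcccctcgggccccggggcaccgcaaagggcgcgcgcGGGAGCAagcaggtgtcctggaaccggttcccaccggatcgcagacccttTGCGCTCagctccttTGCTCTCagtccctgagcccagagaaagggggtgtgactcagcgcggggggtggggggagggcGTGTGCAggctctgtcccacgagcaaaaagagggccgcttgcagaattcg
The Mt2 window held these letters 5 times and the Mt1 window 1 time. Bases outside the windows were not read, so these counts do not compare the metal response sites of the 2 genes.

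Coagulation and complement genes, most of them also products of the hepatocyte, had medians below chow on the diet array and above it on the canertinib array. The coagulation list had a median of 0.34 with 3 of 17 genes at least 2-fold higher and none lower, and -0.46 with the diet alone. Kng1, the kininogen gene, had 19610.2 on chow, 15705 with the diet alone and 46352 with diet and drug. F7, the gene of coagulation factor VII, had 2806, 2075 and 5792. For both, canertinib gave the highest signal of the 3 and the diet the lowest. The complement list stood at 0.19 with the drug and -0.46 without, and 2 of its 19 members were past 2-fold above chow with the drug. Those 2 were C4bp, which encodes an inhibitor of the pathway, at 12268 on chow, 11419 with the diet alone and 27932 with diet and drug. Cfp, the gene of properdin, a product of myeloid cells, which was at the floor on chow and had 848 and 757.

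**Figure D2:**
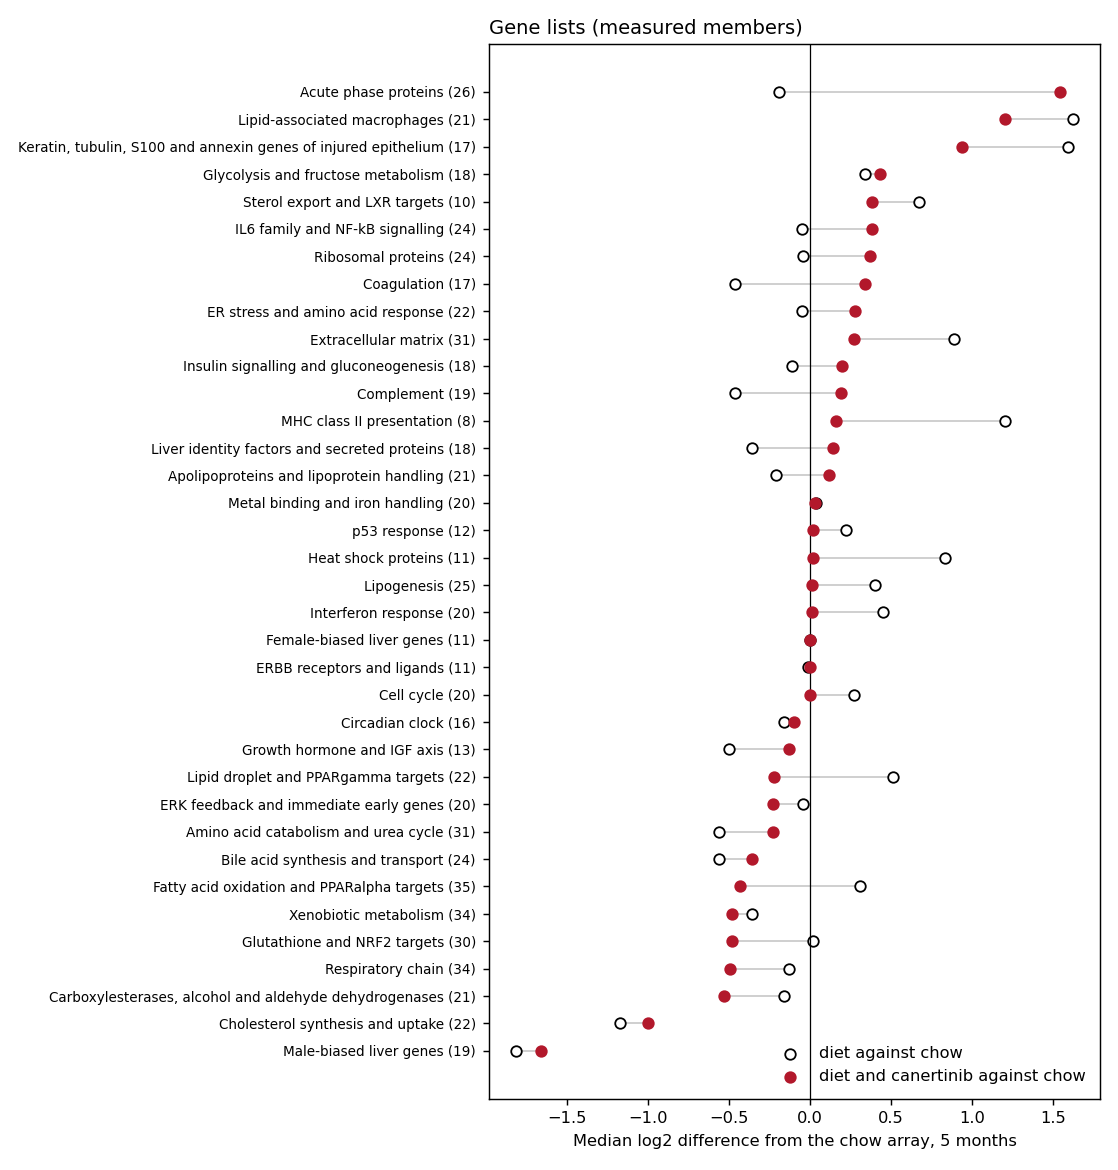
Median log2 difference from the chow array at 5 months for each of the 36 gene lists, with the number of measured members in brackets, for diet and canertinib (red) and for diet with vehicle (open circles); a grey line joins the values of 1 list. Acute phase proteins stand highest with canertinib at 1.54, male-biased liver genes and cholesterol synthesis lie lowest in both, and extracellular matrix, MHC class II, heat shock and lipid droplet genes are nearer to 0 with canertinib than with the diet alone.

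Several markers of neutrophils were higher with canertinib while the diet array was near chow. Of 11 measured markers, 5 were at least 2-fold higher and none lower, the median was 0.93 against -0.01 on the diet array, and the summed signal was 5223 on chow, 4785 with the diet and 19345 with the drug. In pooled tissue RNA, more cells of a type and more RNA per cell cannot be told apart. S100a8, 1 chain of calprotectin, was at the floor on chow, read 287 with the diet and 5942 with canertinib, and was at least 26.8-fold higher. The other chain, S100a9, had 223 on chow, just above the floor, was at the floor with the diet and had 3640.5 with the drug. Both were high on the canertinib array alone of the 3. The granule protein gene Ngp had 717 on chow, 630.4 with the diet alone and 3056 with diet and drug. The granule protease gene Prtn3, outside the list, had 296 on chow, was at the floor with the diet and had 3079. The granule genes Elane and Ltf had log2 differences of 1.14 and 1.12, while Cxcr2, the chemokine receptor of mature neutrophils, was at the floor on all 3 arrays. The acute phase genes were high on the same array, and their relation to these markers was not tested.

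Kupffer cell markers, from the resident macrophages of the sinusoids, were higher as a group. All 12 were above chow with diet and canertinib, 9 of them at least 2-fold, and the median was 1.38 against 0.74 with the diet alone. Their summed signal was 14380.4 on chow, 38782 with the diet and 44155 with the drug. The markers short of 2-fold were Clec4f, Timd4 and Cd163, at log2 differences of 0.94, 0.55 and 0.73 with canertinib. With the diet alone they had 0.60, -0.11 and -0.01. Whether resident or other macrophages carried the difference was not tested. The macrophage protein gene Cd5l had 2449 on chow, 11849.5 with the diet alone and 12096 with diet and drug. The complement gene C1qa, made by macrophages, had 918 on chow, 5179 with the diet alone and 4571 with diet and drug. Both arrays of diet-fed mice were above chow by similar amounts for these genes. Marco, a scavenger receptor gene, had 346 on chow, 297 with the diet alone and 1124 with diet and drug, so that here the diet array stayed near chow.

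Genes of lipid-associated macrophages, the phagocytes of fat-laden tissue, also stood above chow. Of 21 measured, 11 were at least 2-fold higher with diet and canertinib and none lower, and the median was 1.20 against 1.62 with the diet alone. The listed genes Trem2, Spp1 and Cd63 were not among those measured. Mmp12 was at the floor on chow and with canertinib and had 951 with the diet alone. Ccr2 and Ms4a7 were near chow with canertinib, at log2 differences of 0.14 and 0.09. The galectin gene Lgals3 had 279 on chow, 2222 with the diet alone and 1400.1 with diet and drug, the lysozyme gene Lyz2 had 1109.8 on chow, 5579.5 with the diet alone and 6508 with diet and drug. Gpnmb, a glycoprotein of such macrophages, was at the floor on chow and had 1593 and 1129. With canertinib Lgals3 and Gpnmb were below the diet array and Lyz2 was above it. Lpl, which encodes lipoprotein lipase, had 968 on chow, 3881 with the diet alone and 12323 with diet and drug and was 12.7-fold above chow. The related lysozyme gene Lyz1 was 8.61-fold higher, but 1 of its 3 probe sets had the opposite sign.

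The other marker lists had medians nearer to 0. Hepatocyte markers had a median of 0.19 over 8 genes, endothelial markers 0.15 over 16, stellate cell markers 0.00 over 14 and T and NK cell markers 0.00 over 8. Of the 7 B and plasma cell markers, the immunoglobulin chain gene Ighm had 1378 on chow, 1726 with the diet alone and 4741 with diet and drug and Jchain was at the floor on chow and at least 2.23-fold higher with the drug, while the B cell genes Cd79a and Ms4a1 had log2 differences of -0.39 and -0.29. Ighm has 11 probe sets, of which 5 had that sign and 1 the opposite, and its own reading reverses when shared probe sets are left out, at -0.47. Lyve1, a lymphatic and sinusoidal endothelial gene, had 386 on chow, 1155 with the diet alone and 1225 with diet and drug. The pericyte gene Rgs5 had 1059 on chow, 2915 with the diet alone and 3514 with diet and drug. For both the diet array was high as well.

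**Figure D3:**
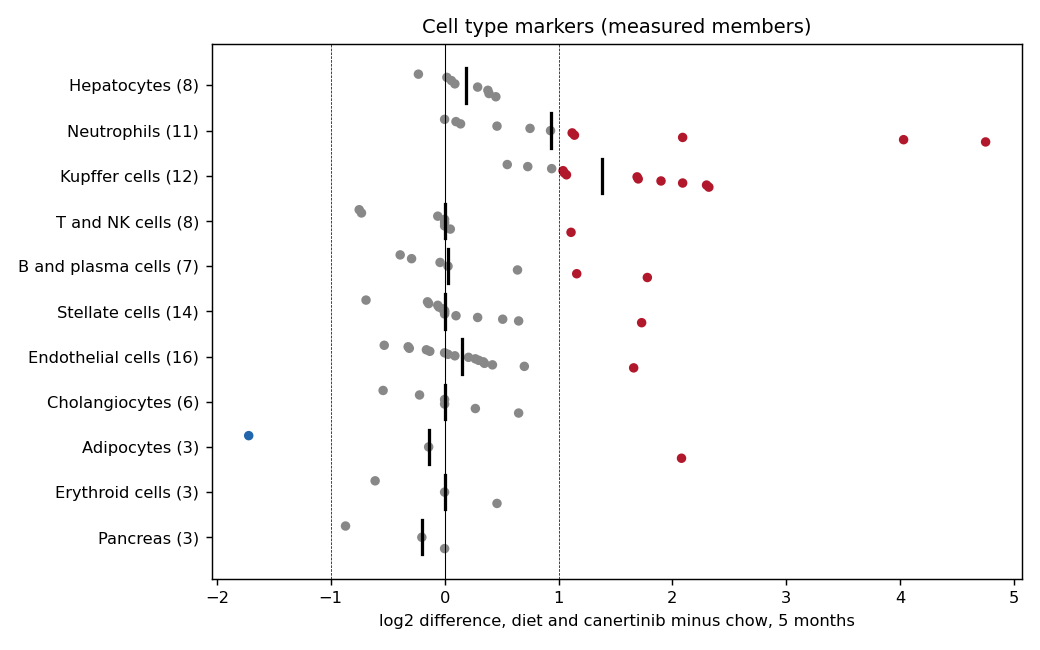
log2 difference between diet and canertinib and chow at 5 months for each measured marker of 11 cell types (1 point per gene, number in brackets), with a black bar at the median of each type. Red points are at least 2-fold higher and blue points at least 2-fold lower, and dashed lines mark 2-fold; all 12 Kupffer cell markers lie above 0, and S100a8 and S100a9 are the 2 neutrophil points above 4.

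Single genes of hormone and growth factor handling were among the largest differences. Igfbp1, an insulin-like growth factor binding protein that is high when insulin is low, had 1301 on chow, 5014 with the diet alone and 28615 with diet and drug and was 22-fold above chow. Cyp17a1, a steroid hydroxylase gene of female-biased liver expression in mice, had 340.0 on chow, 854 with the diet alone and 8916 with diet and drug, or 26.2-fold. Sult1e1, the oestrogen sulfotransferase gene, was at the floor on the chow and diet arrays and had 2039.6, so it was at least 9.21-fold higher. Ddit4, an inhibitor of mTOR signalling, was at the floor on chow and had 724 and 2044. All 4 genes were highest on the canertinib array. For Igfbp1 the 5-month chow array was itself low, at -1.15 log2 against the 2-month one. Among other genes that were at the floor on chow, the matrilysin gene Mmp7 was at least 6.61-fold higher with canertinib, the chitinase-like gene Chil3 of myeloid cells at least 6.59-fold higher and the acyltransferase gene Acnat2 at least 6.54-fold higher. The female-biased list had a median of 0.00, which lay between -0.30 and 0.57 over the other processing settings, with 2 of 11 members past 2-fold above chow and 1 below. The insulin and gluconeogenesis list had a median of 0.20. Its members Irs2, an insulin receptor substrate gene, and G6pc, the glucose-6-phosphatase gene, had log2 differences of 0.98 and -0.95.

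On the lower side, many detoxification genes were found. Of 34 genes of xenobiotic metabolism, 12 were at least 2-fold lower and 2 higher, with a median of -0.48 and -0.36 for the diet alone. Ugt2b1, a glucuronosyltransferase gene, had 31963 on chow, 19243 with the diet alone and 5648 with diet and drug and was 5.66-fold below chow. The aldehyde oxidase gene Aox3 had 19095 on chow, 6435 with the diet alone and 3330.4 with diet and drug. Its relative Aox1 had 3802 on chow, 3335 with the diet alone and 1029 with diet and drug. For Aox1 the diet array was near chow and for Aox3 it lay between the others. Cyp1a2, a P450 gene of the pericentral liver, was lower on both diet arrays, with 15219.7 on chow, 3657 with the diet alone and 5541 with diet and drug.

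Glutathione genes were lower with canertinib as well. Of 30 measured genes of glutathione and NRF2 response, 9 were at least 2-fold lower and none higher, the median was -0.48, and with the diet alone it was 0.02. The glutathione transferase genes Gsta4 and Gsta2 had 2288 and 1948 on chow and 1417 and 1313 with the diet, and were at the floor with canertinib, so the first was at least 10.3-fold lower and the other at least 8.8-fold lower. Gstt3, with 1725, 1011 and 325, was lower at 5 months, and its log2 difference in the 2-month study was 0.09. The list of carboxylesterases, alcohol and aldehyde dehydrogenases and carbonic anhydrases had a median of -0.53, with 7 of 21 at least 2-fold lower and 1 higher. The lower ones were carboxylesterases and Car3, the higher one was the carbonic anhydrase gene Car2, and no alcohol or aldehyde dehydrogenase of the list was past 2-fold. Ces2e, a carboxylesterase gene, had 2582 on chow, 3128 with the diet alone and 561 with diet and drug. Ces1f, another, had 11167 on chow, 7149.9 with the diet alone and 2856 with diet and drug. Both esterases were lowest with canertinib. Car3, a carbonic anhydrase gene abundant in male liver, had 62190.4 on chow, 47169.8 with the diet alone and 18851 with diet and drug. Members of these families are near copies of each other, and how far their probe sets report one gene alone was not tested.

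Genes that burn fatty acids and those of the respiratory chain were mostly below chow by small amounts. Of 35 fatty acid oxidation and PPARalpha target genes, 30 were below chow in any amount and 4 above, 3 of them at least 2-fold lower, and the median was -0.43 where the diet alone had 0.31. The peroxisomal thiolase gene Acaa1b had 35969 on chow, 47175 with the diet alone and 12521 with diet and drug. The peroxisomal enzyme gene Ehhadh had 4107 on chow, 6894 with the diet alone and 1757 with diet and drug. Both were below chow with canertinib and above it with the diet. Respiratory chain genes had a median of -0.49 against -0.13, with 31 of 34 below chow and 1 at least 2-fold lower, namely Uqcrc1 of complex III with 10650.2 on chow, 10481 with the diet alone and 4905 with diet and drug. The ATP synthase gene Atp5a1 had -0.77 and the cytochrome c gene Cycs -0.75, each with all of its probe sets on that side. Ribosomal protein genes were shifted the other way, with a median of 0.37 against -0.04, 22 of 24 above chow and 1 at least 2-fold higher, which was Rpl41 at 1.30. Such shifts of under 2-fold across a list sit beside the difference in actin 3' to 5' signal, whose part was not tested.

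Single metabolic genes were lower with canertinib while the diet array stayed near chow. Me1, the cytosolic malic enzyme that supplies NADPH, had 11942 on chow, 14112 with the diet alone and 2931 with diet and drug and was 4.08-fold below chow. Retsat, a retinol saturase gene, had 6818 on chow, 6135 with the diet alone and 1671 with diet and drug. Ddah1, which breaks down methylated arginine, had 10674 on chow, 9486 with the diet alone and 2903 with diet and drug. Phgdh, the first enzyme of serine synthesis, was lower on both, at 3887 on chow, 1164 with the diet alone and 444 with diet and drug, where 2 of 4 probe sets shared that sign and 1 opposed it.

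**Figure D4:**
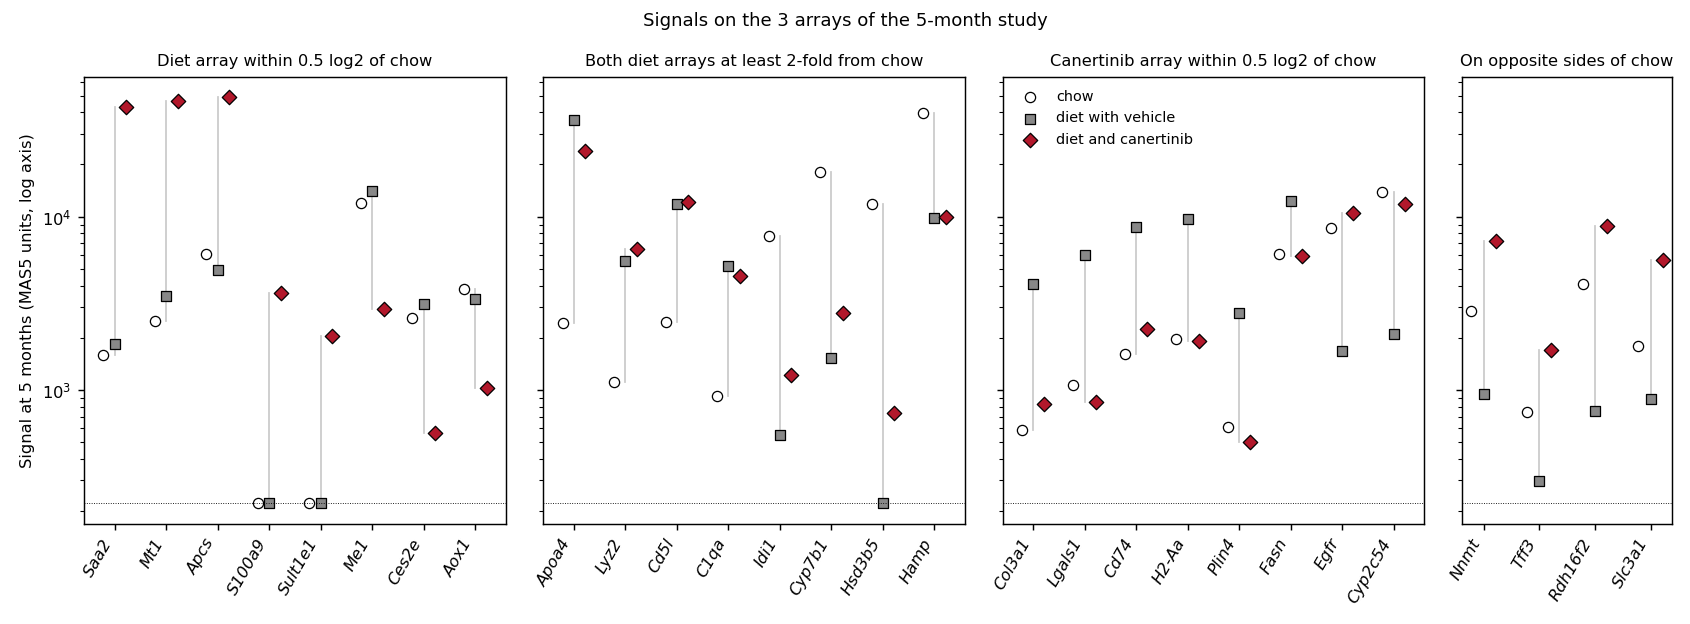
Signal in MAS5 units on a log axis for 28 genes on the 3 arrays of the 5-month study: chow (open circles), diet with vehicle (grey squares) and diet and canertinib (red diamonds), 1 array each, with the floor as a dotted line. The panels hold genes for which the diet array was within 0.5 log2 of chow, genes at least 2-fold from chow on both diet arrays, genes for which the canertinib array was within 0.5 log2 of chow, and genes on opposite sides of chow. Saa2 stands at 42877 with canertinib and at 1588 and 1836 on the other arrays.

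Some of the distance from chow was present on both diet arrays. Apoa4, an apolipoprotein gene of fat-rich lipoproteins, had 2429 on chow, 36178 with the diet alone and 23895 with diet and drug, so it was 9.84-fold above chow with canertinib and higher still without. Ly6d is a surface protein gene of the keratin, tubulin, S100 and annexin list. It had 288 on chow, 3782 with the diet alone and 1550.3 with diet and drug. The integrin chain gene Itgb2 of leukocytes had 240.5 on chow, 1228 with the diet alone and 1227 with diet and drug. For Ly6d the canertinib array stood between chow and diet, and for Itgb2 both diet arrays were alike.

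Cholesterol synthesis genes, which cells turn down when sterol is plentiful, were low with canertinib as with the diet. Of 22 measured, 11 were at least 2-fold lower and none higher with diet and canertinib, the median was -1.00 and that of the diet alone -1.17. Idi1, the isopentenyl diphosphate isomerase gene, had 7736 on chow, 547 with the diet alone and 1218 with diet and drug. Msmo1, a sterol oxidase gene, had 6322 on chow, 653 with the diet alone and 1618 with diet and drug. These were lower on both diet arrays, and less so with canertinib. Sqle, the squalene epoxidase gene, had 3842 on chow, 659.5 with the diet alone and 1346 with diet and drug. Hmgcs1, which encodes HMG-CoA synthase, had 14003 on chow, 4642 with the diet alone and 4111 with diet and drug. For Sqle too the canertinib array lay between diet and chow, and for Hmgcs1 it was the lowest. The sterol response motif TCACNCCAC was in 1 of the 18 genes of this list with a promoter in the table (5.6%) and in 1.2% of all genes with one. It was also in 2 of the 19 acute phase genes with a promoter (10.5%), so the 1 match does not set the cholesterol list apart. The gene of this list that held it was Hmgcs1 (chr13:119690101-119690350, plus strand), whose promoter is printed with the motif in capitals.
Hmgcs1: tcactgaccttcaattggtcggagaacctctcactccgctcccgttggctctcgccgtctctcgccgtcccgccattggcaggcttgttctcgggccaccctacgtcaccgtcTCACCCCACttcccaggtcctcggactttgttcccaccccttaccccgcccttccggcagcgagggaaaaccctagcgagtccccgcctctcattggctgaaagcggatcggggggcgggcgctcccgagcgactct
Sterol export genes had a median of 0.38 with canertinib and 0.67 with the diet alone, and 1 of 10 was at least 2-fold higher with canertinib. That gene was Abca1, a cholesterol exporter gene, with 5667 on chow, 8927 with the diet alone and 13802 with diet and drug. Abcg1, another exporter gene, had 1002 on chow, 2783 with the diet alone and 1990.5 with diet and drug. The canertinib array was above the diet array for Abca1 and below it for Abcg1.

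Genes of male-biased liver expression, which depend on the pulses of growth hormone in males, had the lowest median of the 36 lists. Of 19 measured, 12 were at least 2-fold lower and none higher, with medians of -1.66 for diet and canertinib and -1.81 for the diet. Hsd3b5, a steroid reductase gene of male liver, had 11754 on chow, was at the floor with the diet and had 733 with the drug. Cyp7b1, the oxysterol hydroxylase gene, had 18196 on chow, 1529 with the diet alone and 2762 with diet and drug. Both were lowest on the diet array. Cyp4a12a, a fatty acid hydroxylase gene, had 7565 on chow, 3269.5 with the diet alone and 730.3 with diet and drug. The major urinary protein gene Mup10, outside the list, had 7492 on chow, 1048 with the diet alone and 423 with diet and drug. With canertinib Hsd3b5 and Cyp7b1 were closer to chow than with the diet alone, and Cyp4a12a and Mup10 were farther from it. Mup3, the measured major urinary protein gene of the list, was closer to chow with canertinib, at -0.48 log2 against -1.07 with the diet alone. The growth hormone axis itself was less displaced, with a median of -0.13. None of its 13 genes was past 2-fold, beside 5.54% of all measured genes. The receptor gene Ghr had 12339 on chow, 8745 with the diet alone and 6973 with diet and drug. The binding protein gene Igfbp2 had 12894 on chow, 8105 with the diet alone and 6464 with diet and drug, just short of 2-fold lower.

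Hamp, the gene of the iron hormone hepcidin, had 39497 on chow, 9881 with the diet alone and 9956 with diet and drug. With canertinib it was 3.97-fold lower at 5 months and the diet array lay level with it, whereas in the 2-month study the log2 differences were -5.25 for diet with canertinib and -0.54 for diet alone. The carboxylesterase gene Ces2a had 9147 on chow, 2287 with the diet alone and 1747 with diet and drug. The peroxisomal CoA hydrolase gene Nudt7 had 21512 on chow, 6136 with the diet alone and 4632 with diet and drug. Each was below chow on both diet arrays.

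Further genes with large lower values included members of the lists above and others. Serpina4-ps1, a serpin pseudogene, had 2998 on chow, 469.8 with the diet alone and 418 with diet and drug. Etnppl, which breaks down phosphoethanolamine, had 3816 on chow, 836 with the diet alone and 566 with diet and drug. Elovl3, a fatty acid elongase gene of the male-biased list, had 7356 on chow, 2252 with the diet alone and 1428 with diet and drug. All were lower on both diet arrays. Moxd1, a monooxygenase-like gene of the male-biased list, was at the floor on both diet arrays against 1939 on chow, which makes it at least 8.76-fold lower, while the chow arrays lay 1.56 apart. Osgin1, an oxidative stress growth inhibitor gene of the glutathione and NRF2 list, had 4707 on chow, 1217 with the diet alone and 1485 with diet and drug, with chow arrays 1.45 apart.

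Bile acid genes were found on both sides of chow. Cyp8b1, the 12alpha-hydroxylase that sets cholic acid output, had 14191 on chow, 8465 with the diet alone and 2135 with diet and drug and was 6.65-fold lower with canertinib. Cyp7a1, the rate-limiting enzyme of the classical pathway, had 3068 on chow, 2269.6 with the diet alone and 7033 with diet and drug and was 2.29-fold higher. For Cyp7a1 the 5-month chow array was low against the 2-month one, at -0.99 log2, which is close in size to its difference from chow, 1.20. Cyp39a1, an oxysterol hydroxylase gene, was 3.51-fold higher, and the uptake transporter gene Slco1a4 3.74-fold lower. In all 5 of 24 members were at least 2-fold lower and 2 higher, with a median of -0.36.

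Most matrix genes were within 2-fold of chow on the canertinib array. Of 31 measured, 2 were at least 2-fold higher and none lower, with a median of 0.27 against 0.89 and 12 genes at least 2-fold higher with the diet alone. The fibrillar collagen gene Col3a1 had 589.7 on chow, 4072 with the diet alone and 824 with diet and drug, and Col1a1 was at the floor on the chow and canertinib arrays and had 1067 with the diet. The basement membrane collagen gene Col4a1 had 902 on chow, 3074 with the diet alone and 1090.3 with diet and drug. Vcam1, a leukocyte adhesion gene outside the matrix list, had 469 on chow, 1470.4 with the diet alone and 647 with diet and drug. For these genes the diet array stood apart from the others. The exceptions in the list were Nid1 and Mmp14. Nid1, the basement membrane linker nidogen, had 277 on chow, 1484 with the diet alone and 1082 with diet and drug. The membrane metalloproteinase gene Mmp14 had 979 on chow, 1492 with the diet alone and 2100.4 with diet and drug. Dcn, another gene of the list, was just short of 2-fold higher, with 4457 on chow, 15851 with the diet alone and 8894 with diet and drug. Fn1, the fibronectin gene, which hepatocytes also secrete into plasma, had 29273 on chow, 23268 with the diet alone and 50161 with diet and drug. A log2 difference within 0.5 on single arrays does not show that the livers were alike.

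MHC class II and interferon response genes had medians near chow too. None of 8 MHC class II genes was past 2-fold with canertinib, beside 5.54% of all measured genes, and the median was 0.16 against 1.20. H2-Aa had 1975 on chow, 9750.5 with the diet alone and 1926 with diet and drug. The invariant chain gene Cd74 had 1617 on chow, 8659 with the diet alone and 2239 with diet and drug. The interferon list had 0.01 against 0.45 over 20 genes, none past 2-fold, beside the same 5.54%. Macrophage markers were thus above chow on an array where antigen presentation genes were not. Of 17 genes of the keratin, tubulin, S100 and annexin list, 8 were at least 2-fold higher and 1 lower, and the median was 0.94 against 1.59. The keratin genes Krt8, Krt18 and Krt20 were not past 2-fold with canertinib, at 0.54, 0.34 and 0.01. Which cells carried the higher genes was not tested. The galectin gene Lgals1 had 1070.0 on chow, 5984 with the diet alone and 848 with diet and drug. S100a10, which encodes a partner of annexin A2, had 1550.0 on chow, 5962 with the diet alone and 1429.8 with diet and drug. The annexin gene Anxa2 itself had 1190.3 on chow, 7372 with the diet alone and 2991 with diet and drug, so it was above chow where its partner was not. Heat shock genes had medians of 0.02 and 0.83.

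Lipid storage and synthesis genes showed the same contrast between the diet arrays. Cidec, whose product coats and fuses lipid droplets, was at the floor on the chow and canertinib arrays and had 2119 with the diet, and Plin4, another droplet coat gene, had 606 on chow, 2781 with the diet alone and 499.6 with diet and drug. Cd36, the fatty acid uptake gene, had 947 on chow, 4626 with the diet alone and 2482 with diet and drug, so it was 2.62-fold above chow. The lipid droplet and PPARgamma list had a median of -0.22 against 0.51, with 3 genes at least 2-fold higher and 3 lower of 22. The higher ones were Lpl, Cd36 and the fatty acid binding protein gene Fabp4, at 346, 1814 and 1468. Fitm1, a droplet budding gene, had 3115 on chow, 2319 with the diet alone and 1022 with diet and drug. Lipogenesis genes had 0.01 against 0.40 over 25 genes. Fasn, fatty acid synthase, had 6061 on chow, 12367 with the diet alone and 5909 with diet and drug. The desaturase gene Scd1 had 58665 on chow, 57820.2 with the diet alone and 69580.5 with diet and drug, with all 3 arrays close together. Scd1 was among the brightest genes, near Alb at 70172.5, 55463.7 and 71212.9 in the same order. How far signals this high, also those of Lcn2 and Saa1 with canertinib, follow differences in RNA was not tested. Lpin1, a phosphatidate phosphatase gene, had 1606 on chow, 4559 with the diet alone and 4823 with diet and drug, but its 5-month chow array was low against the 2-month one, at -2.00 log2.

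Egfr, the gene of the receptor that the drug inhibits, had 8635 on chow, 1683 with the diet alone and 10516 with diet and drug, a log2 difference from chow of 0.28 with canertinib and -2.36 with the diet alone. Of its 7 probe sets, 4 had the sign of the canertinib value and 2 the opposite. Erbb3 had 4665 on chow, 3269.9 with the diet alone and 4813 with diet and drug and Erbb2 was at the floor on all 3 arrays. None of the 11 measured receptors and ligands was past 2-fold with canertinib, beside 5.54% of all measured genes, so this count does not set the list apart. Among 20 ERK feedback and immediate early genes, 2 exceeded chow by 2-fold or more and 1 was below it by as much, with a median of -0.23. Over all measured genes the shares were 2.82% and 2.72%. The survival gene Mcl1 had 2675 on chow, 5703 with the diet alone and 7777 with diet and drug. Phlda1 had 6170.0 on chow, 2782 with the diet alone and 2424 with diet and drug. For both the diet array lay on the same side of chow, and for Phlda1 the chow arrays lay 1.29 apart.

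Some hepatocyte genes that were lower with the diet alone were within 0.5 log2 of chow with canertinib, while others, such as Hamp, were not. The P450 gene Cyp2c54 had 13936 on chow, 2100.0 with the diet alone and 11806 with diet and drug. Igfals, which encodes the plasma carrier subunit of insulin-like growth factors, had 3881 on chow, 1135 with the diet alone and 2872 with diet and drug. Igf1 had 16934 on chow, 8689 with the diet alone and 16734 with diet and drug. The hepatocyte regulator Hnf4a had 13660.1 on chow, 9323 with the diet alone and 19025 with diet and drug. St3gal6 met the same rule at 5 months, but its chow arrays lay 2.67 apart and 1 of its 5 probe sets had the sign.

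Genes at least 2-fold from chow on opposite sides on the diet and canertinib arrays and above the floor on all 3 arrays numbered 4. Nnmt, the nicotinamide methyltransferase gene, had 2858 on chow, 945 with the diet alone and 7245 with diet and drug. Slc3a1, an amino acid transporter subunit gene, had 1799 on chow, 886 with the diet alone and 5607 with diet and drug. Rdh16f2, a retinol dehydrogenase family gene, had 4079.9 on chow, 752 with the diet alone and 8849 with diet and drug. The trefoil factor gene Tff3 had 740.5 on chow, 299 with the diet alone and 1689 with diet and drug. Each has 1 probe set. In the 2-month study diet with canertinib was also above chow, at 2.00, 2.25, 1.18 and 0.99 on the log2 scale in the same order.

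Cell cycle genes had a median of 0.00 and 1 of 20 at least 2-fold higher, and the cyclin D1 gene Ccnd1 had 1709 on chow, 3826 with the diet alone and 1766 with diet and drug. Of 12 p53 response genes, Cdkn1a, the cell cycle inhibitor p21, was the one past 2-fold, with 544 on chow, 1026 with the diet alone and 1462 with diet and drug. Circadian clock genes had 3 higher and 2 lower of 16, among them the output factor Dbp at 4816 on chow, 3592 with the diet alone and 1990.1 with diet and drug and the clock gene Per1 at 537 on chow, 912 with the diet alone and 1200.2 with diet and drug. The chow arrays lay apart for Per2, at -1.20 log2. The hour at which tissue was taken is not known from the labels. Amino acid catabolism genes had a median of -0.23 over 31 genes, with Glul, glutamine synthetase, at 7142 on chow, 14874 with the diet alone and 16898 with diet and drug and Hal, histidine ammonia-lyase, at 5693 on chow, 1344 with the diet alone and 2303 with diet and drug. Glycolysis and fructose genes had 0.43, and Pkm, the pyruvate kinase of non-hepatocyte cells and injured liver, had 340.3 on chow, 984 with the diet alone and 1089.9 with diet and drug.

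The 2-month study, with the drug in the food, gives values from other arrays. There diet and canertinib gave 531 genes (3.80%) that exceeded chow by 2-fold or more and 383 (2.74%) that were below it by as much. Of the genes higher at 5 months, 177 were also at least 2-fold higher at 2 months, which is 44.8% of the 5-month list and 33.3% of the 2-month list, beside 3.80% of all measured genes. Of the genes lower at 5 months, 111 were lower at 2 months, 29.2% and 29.0% of the lists, beside 2.74%. In the opposite direction at 2 months were 5 of the 395 higher genes, beside 2.74% of all measured genes lower there. Likewise 10 of the 380 lower genes were higher at 2 months, beside 3.80% of all measured genes. For several of these, such as Supt20 at 1.70 log2 or more, the chow arrays themselves lay apart. Route, duration of dosing and length of study differ together between the studies, and the difference between them was not tested.

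Several of the largest differences were present at 2 months too. Lcn2, Orm2, Mt2 and Igfbp1 had log2 differences of 8.37, 6.52, 5.46 and 4.37 at 2 months against 6.81, 6.01, 4.15 and 4.46 at 5 months, where the 2-month values of Lcn2 and Orm2 are bounds, because both were at the floor on 2-month chow. Acute phase genes had medians of 1.78 and 1.54, Kupffer cell markers 1.47 and 1.38, and neutrophil markers 1.08 and 0.93. Male-biased genes had -2.32 at 2 months and -1.66 at 5. Hsd3b5 was 16-fold below chow at 5 months and at the floor with canertinib at 2 months. Cholesterol synthesis was less displaced at 2 months, with a median of -0.50 against -1.00 and 2 of 22 genes at least 2-fold lower against 11, and Sqle stood at 0.24 and -1.51. The chow arrays differed for this list too, with 16 members higher and 5 lower at 5 months than at 2 and a median of 0.20. Its summed signal was 81861 on 2-month chow and 101562 on 5-month chow, and 53043 and 47435 with canertinib. The distance from chow in this list thus depends on the chow array used. Gpnmb was at the floor on all arrays of the 2-month study compared here and above it on both 5-month diet arrays.

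Some large 5-month differences had no counterpart at 2 months. Nomo1 had 2193 on chow, 1414 with the diet alone and 233 with diet and drug, and its 2-month log2 difference was -0.01. Cd151, a tetraspanin gene, had 3471 on chow, 3656 with the diet alone and 688 with diet and drug, with 0.11 at 2 months, and among its 6 probe sets 4 shared the 5-month sign and 1 opposed it. Abca2 was at the floor on both diet arrays against 1289.8 on 5-month chow, but it was at the floor on 2-month chow too, so its difference rests on the 5-month chow array. The plot of both studies sets such genes along the horizontal line at 0.

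**Figure D5:**
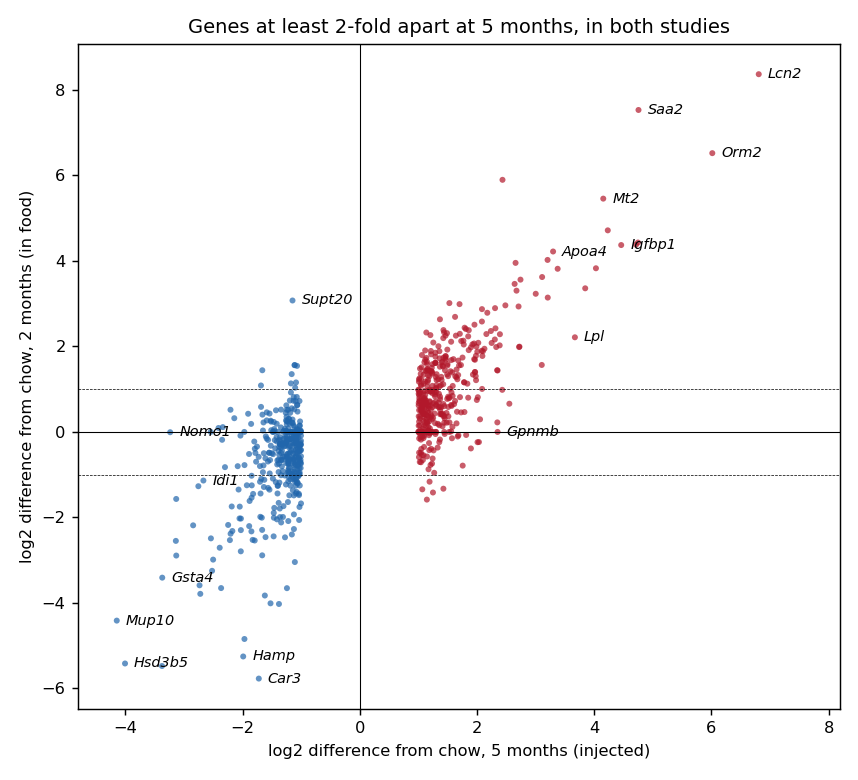
log2 difference between diet with canertinib and chow in the 5-month study (horizontal) and the 2-month study (vertical) for the 775 genes at least 2-fold apart at 5 months, red where higher and blue where lower; dashed lines mark 2-fold at 2 months. The points at the upper right, such as Lcn2 and Saa2, and at the lower left, such as Hsd3b5 and Mup10, were displaced alike in both studies, while Nomo1 and Gpnmb lie near 0 at 2 months and Supt20 is lower at 5 months and higher at 2 months. Supt20 was at the floor on 2-month chow and had 718 on 5-month chow, so its signs depend on the chow arrays. Of its 7 probe sets, 2 had the 5-month sign and 2 the opposite.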

How the data were processed

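Liver RNA pooled from 3 to 4 mice per group was measured on 6 arrays, and 2 of them, chow and diet with canertinib at 5 months, are compared here. The deposited intensity values are MAS5 signals on a linear scale, per the submitters' processing notes, with the version not given in the sources used here. From the values, the authors scaled each array to a mean of 500 after trimming 2% of probe sets at either end. Arrays have no read depth, and their number limits the precision.

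Of 45101 probe sets, 34958 had 1 gene symbol in the platform annotation, 932 several and 9211 none. A gene was read from its brightest probe set on average. A floor of 221.4 (50th percentile) was applied before the log2 transform, and 13989 genes above the floor on at least 1 array were kept. Of these, 10979 were above the floor on both arrays compared and 1159 on neither. Genes at least 2-fold apart were counted, and 36 gene lists and 11 marker lists are given by counts and medians. Named are the largest differences, genes displaced or near chow on both, one or neither of the diet arrays (within 0.5 log2), the 5 largest of each list, and a fixed set. The members and lists were chosen with earlier results of these data known. Car2, Cxcr2, Supt20, Mmp12, Ccr2, Ms4a7, Krt8, Krt18, Krt20, Clec4f, Timd4 and Cd163 were named after their values were seen. Promoters are from RefSeq, GRCm38.p6. Listed genes without a probe set of their own were not used here. Alternatives were other normalizations, floors, thresholds and probe set rules, and genes apart between the chow arrays left out (chosen after seeing the data). The counting was tested on simulated data. Python 3.11.15, NumPy 2.4.6, SciPy 1.17.1, pandas 2.3.3 and matplotlib 3.10.9 were used.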

Additional observations from a re-analysis of the deposited data

How the results depend on the processing

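With 1 array per group there was no replicate to leave out. No paired analysis was possible because each group has 1 array and the labels carry no replicate numbers. The counts of 395 genes higher and 380 lower were 403 and 370 after quantile normalization, 440 and 348 after median centring, 588 and 598 with the floor at the 40th percentile, 304 and 252 with it at the 60th, 1664 and 1662 with no floor, 305 and 263 for genes above the floor on both arrays, 246 and 232 with the mean over probe sets, and 337 and 321 without _s_at, _x_at and _a_at probe sets. A 1.5-fold threshold gave 1248 and 1402, and a 3-fold threshold 109 and 88. An alternative added after seeing the data, which leaves out genes 2-fold apart between the chow arrays, gave 344 and 341. The share of higher genes among those past the threshold was between 47.1% and 55.8% over these settings, so neither direction stood out. With no floor the chow arrays differed 2-fold in 2538 genes against 364, and dim genes therefore limit every count. No list with a median of 0.25 or more in size turned its sign in 417 list and setting pairs, but 47 pairs moved by more than 0.12, the spread of list medians between the chow arrays. The female-biased median ranged from -0.30 to 0.57. The acute phase median stayed between 1.45 and 1.58, the cholesterol median between -1.19 and -0.69 and the male-biased median between -1.94 and -1.45. Without probe sets shared between transcripts, Lyz1 read -0.75 in place of 3.10, Otc 0.02 in place of -1.22 and Ighm -0.47 in place of 1.78 on the log2 scale, and the cause was not tested. Of 2487 pairs of a named gene and a setting, 94 kept their sign class but moved by more than 0.61 log2, the spread of the named genes between the chow arrays. Apart from these 94, the 3 pairs of Lyz1, Otc and Ighm turned their sign and also moved by more than 0.61.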
